A study of Mus musculus with 5 samples.

Results

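A set of 6 genes of growing and migrating neurons was examined for their level in adult mouse retina relative to newborn mouse cortex: Dcx, Fnbp1l, Tiam2, Enc1, Gap43 and Tmsb4x. They were selected on their log ratios in these same data, which earlier results had shown to be low in retina, so the ratios are a description here and carry no test. By the rule, every probe whose single gene symbol was one of these 6 was taken, which gave 7 probes, 2 for Dcx and 1 for each other gene. The 6 genes are among 8798 genes that had a value on all arrays.

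The arrays compared 2 pools of total RNA, adult retina from C57/B6 mice and cortex of Swiss-Webster mice at postnatal day 1. Both pools were hybridised together to each of 5 two-colour Agilent arrays, with retina in Cy5 and cortex in Cy3 on every one, and the labels call the arrays technical replicates. The design asked how far expression values vary within the platform. Tissue, strain, age and dye therefore change together and cannot be told apart, and the spread between arrays is that of labelling and hybridisation, not of animals. In whole tissue, fewer cells of a type and less RNA per cell cannot be told apart.

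A growth cone is the motile tip of an extending axon. It steers by assembling actin at its leading edge while microtubules advance behind, and a migrating neuron moves its leading process and nucleus with the same machinery. Small GTPases such as Rac and Cdc42 switch actin assembly on, and membrane proteins of the growth cone couple it to calcium and kinase signals. Newborn cortex still holds many neurons that migrate and extend axons, whereas the neurons of the adult retina have completed both.

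Values are log2 ratios of retina over cortex, given as mean ± SD over n = 5 arrays, so that a negative value is a lower level in retina and -1 is 2-fold lower. The deposited numbers were read as log10 ratios. That base and the direction are likely and not stated: the numbers stop exactly at 2 and -2, as Agilent's log10 ratios do, and the direction follows the dyes and the order in the titles. Read this way, all 3 measured markers of photoreceptors, cells that cortex lacks, were higher in retina, from 2.97 to 4.30 log2. A gene of a list below was called lower or higher only where it passed limma's test against a minimum of 2-fold, two-sided, at a Benjamini-Hochberg adjusted p of 0.05 or less over all 8798 genes.

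The start regions of the members differ widely in base composition, and those of Dcx, Fnbp1l and Tmsb4x are shown for this reason. These 3 genes were all low in retina, while their start regions were, in that order, poor, rich and average in G and C. RefSeq sequences of build GRCm38.p6 were matched by symbol for 4 of the 6 genes, which left Enc1 and Gap43 named only. Each line gives the 250 bases before a start site, 5′ to 3′ on the gene's strand, at chrX:143933220-143933469 (minus strand) for Dcx, chr3:122619715-122619964 (minus strand) for Fnbp1l and chrX:167209219-167209468 (minus strand) for Tmsb4x. Capitals mark matches to 6 motifs searched on both strands: TATAAA, the E-boxes CAGCTG and CAGATG, the GC box GGGCGG, the Sox motif ACAAAG and the CArG box, which can overlap TATAAA.
Dcx: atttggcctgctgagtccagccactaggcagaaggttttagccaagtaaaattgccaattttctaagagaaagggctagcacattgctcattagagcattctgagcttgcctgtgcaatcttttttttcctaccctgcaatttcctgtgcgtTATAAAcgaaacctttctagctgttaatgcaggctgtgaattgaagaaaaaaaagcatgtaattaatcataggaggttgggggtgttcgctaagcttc
Fnbp1l: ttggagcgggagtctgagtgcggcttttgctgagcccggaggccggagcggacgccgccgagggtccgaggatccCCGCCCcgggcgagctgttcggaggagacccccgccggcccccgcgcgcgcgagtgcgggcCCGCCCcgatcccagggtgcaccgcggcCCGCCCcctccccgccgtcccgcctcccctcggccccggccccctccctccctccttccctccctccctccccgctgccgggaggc
Tmsb4x: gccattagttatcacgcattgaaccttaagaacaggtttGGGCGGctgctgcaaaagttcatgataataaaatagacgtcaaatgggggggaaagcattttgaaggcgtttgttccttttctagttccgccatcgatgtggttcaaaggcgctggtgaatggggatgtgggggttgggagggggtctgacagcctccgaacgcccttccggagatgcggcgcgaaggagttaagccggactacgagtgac

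The Dcx region was 41.6% G and C with 3 CpG pairs, and its 1 match was a TATAAA that begins 98 bases before the start site. Dcx has a second annotated start, for which the same TATAAA lies 193 bases upstream and an ACAAAG lies 8 bases upstream. The Fnbp1l region was 80.0% G and C with 33 CpG pairs and held 3 GC boxes, while Tmsb4x was at 52.0% with 15 CpG pairs and 1 GC box. Over 32536 distinct mouse promoter sequences of the same length, the median was 52.4% G and C with 6 CpG pairs. TATAAA occurred in 12.3% of them, GGGCGG in 33.0%, CAGCTG in 13.1%, CAGATG in 14.4%, ACAAAG in 16.5% and the CArG box in 1.48%. These matches are letters in a window and describe no binding.

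Dcx encodes doublecortin, which binds and stabilises microtubules in migrating neurons. Its probe 17690 had the lowest values of the set and read -4.69, -4.60, -4.56, -4.58 and -4.61 on arrays 1 to 5, a mean of -4.61 ± 0.05 or 24.3-fold lower in retina. Its probe 9855 read -3.39, -3.41, -3.34, -3.36 and -3.36, a mean of -3.37 ± 0.03 or 10.3-fold lower. The probes stood apart on every array without overlap. The difference was 1.23 ± 0.04 log2 and ran from 1.18 to 1.29. Averaged over both probes the gene stood at -3.99 ± 0.04, the second lowest of 8798 genes, and the fold for Dcx thus depends on the probe far more than on the array.

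Tiam2 acts upstream of the GTPase Rac, and Fnbp1l acts between the GTPase Cdc42 and actin. Fnbp1l, an F-BAR protein that links Cdc42 to the actin nucleation promoter N-WASP, read -3.95, -3.80, -3.88, -3.86 and -3.86. Its mean was -3.87 ± 0.05, or 14.6-fold lower, and array 1 was the lowest. Tiam2, which loads Rac with GTP, read -3.66, -3.57, -3.61, -3.49 and -3.74, a mean of -3.61 ± 0.09 or 12.2-fold lower. Its lowest value was on array 5 and its highest on array 4, and no value of Tiam2 reached as low as any of Fnbp1l.

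Enc1, an actin-binding protein with BTB and kelch domains that is made in developing neural tissue, read -3.28, -3.36, -3.19, -3.42 and -3.42. The mean of Enc1 was -3.33 ± 0.10, or 10.1-fold lower, with arrays 4 and 5 the lowest. Gap43, a membrane-anchored substrate of protein kinase C that binds calmodulin and is abundant in growth cones, read -3.32, -3.06, -3.06, -3.19 and -3.33. Its mean was -3.19 ± 0.13, or 9.15-fold lower, the widest spread of the set, with arrays 1 and 5 low and arrays 2 and 3 high. Tmsb4x encodes thymosin beta 4, which holds actin monomers in reserve, and read -2.37, -2.31, -2.21, -2.32 and -2.29. At -2.30 ± 0.06, or 4.92-fold lower, it was the least shifted member, and its values lay apart from those of every other member.

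**Figure D1:**
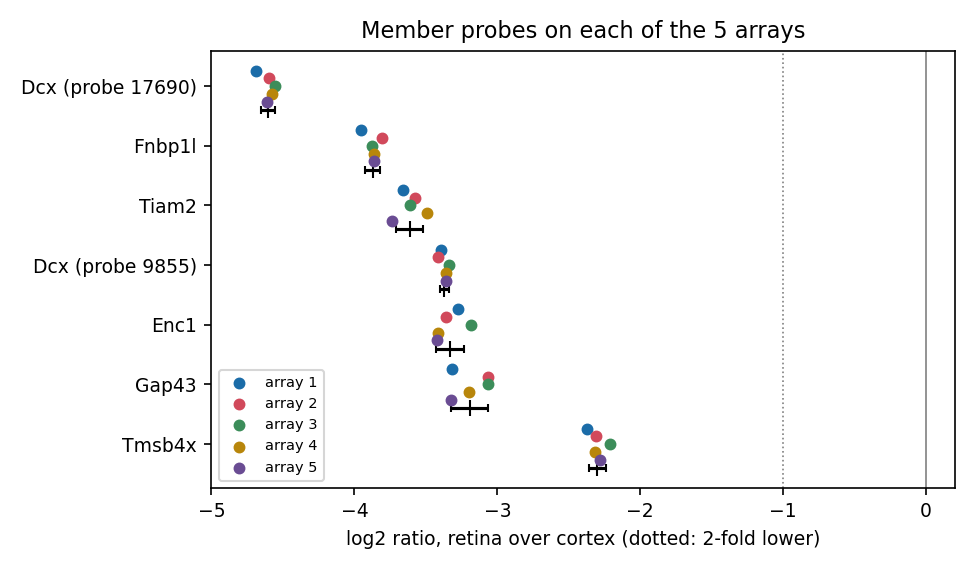
Log2 ratio of retina over cortex (horizontal axis) for each of the 7 member probes on arrays 1 to 5 (coloured points), with the mean and SD over the 5 arrays below each row in black. The Dcx probes lie at -4.61 and -3.37, Tmsb4x lies alone at -2.30, and no point reaches the dotted line at 2-fold lower.

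From the lowest gene upwards, with the Dcx probes averaged, the order was Dcx, Fnbp1l, Tiam2, Enc1, Gap43 and Tmsb4x. The place of Dcx rests on probe 17690: its probe 9855 alone, at -3.37, lay above Fnbp1l and Tiam2 on 5 of 5 arrays. Adjacent genes in this order differed by 0.12 ± 0.05 log2 for Dcx and Fnbp1l, whose ranges over the arrays overlapped although Fnbp1l was the higher on 5 of 5 arrays. The step from Fnbp1l to Tiam2 was 0.26 ± 0.09 and that from Tiam2 to Enc1 0.28 ± 0.14, with no overlap. Enc1 and Gap43 differed by 0.14 ± 0.13 with overlapping ranges, and Gap43 was the higher on 4 of 5 arrays. Tmsb4x stood 0.89 ± 0.11 above Gap43. All 7 probes read more than 2-fold lower in retina on all 5 arrays, and the choice of members fixes this count. By a different measure, the limma test of genes against 2-fold, 6.63% of all genes passed in either direction and 3.83% on the lower side. The count of probes cannot be set directly against these shares. It also rests on the log10 reading: read as log2 ratios, Gap43 would be 1.95-fold and Tmsb4x 1.62-fold lower. By rank from the lowest of 8798 genes, these were the genes at places 2, 3, 5, 8, 9 and 49, which restates the choice of members.

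The members were chosen on their ratios, and whether repeatability between arrays also played a part is not known. The SD over arrays ran from 0.04 for Dcx to 0.13 for Gap43, where the median over all genes was 0.085 and the 95th percentile 0.354. Dcx repeated more closely than most genes, with 8.47% of genes below its SD, and Fnbp1l and Tmsb4x did too, at 21.9% and 27.3%. The Dcx SD is that of a mean over 2 probes, whose own SDs were 0.03 and 0.05. Tiam2 and Enc1 were near the middle, at 54.6% and 59.7%, and Gap43 was above it, at 73.0%. The member probes shared part of their deviations: on array 3, 6 of 7 probes lay above their own mean, and on array 1, 6 of 7 lay below it. Over all 7 probes, with Dcx counted by both of its probes, the mean deviation was 0.06 log2 on array 3 and -0.05 on array 1. These shifts are small beside the ratios themselves. The 1st percentile over all genes was -2.01, -1.97, -1.89, -2.03 and -1.99 on arrays 1 to 5, so low genes in general were also least low on array 3. The likeness did not hold on every array: this percentile was lowest on array 4, where the mean deviation of the member probes was 0.01.

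The probes numbered next to Enc1 and Gap43 held low values of their own. The place of a probe on the array is not given, so the probe number was used as a stand-in. Within 8 numbers of the Enc1 probe, 4 of 16 neighbours were below -3, at -3.48, -3.36, -3.54 and -3.58, and none of these 4 had a gene symbol. Within 8 numbers of the Gap43 probe, 6 of 15 neighbours were below -1, the lowest at -2.995 and the number just before it at -2.001, again all without a symbol. Low values were more frequent among such probes in general: 5.99% of the 9633 probes without a single symbol had a mean below -2, against 0.974% of the 11813 with one. Neighbours with a single symbol had medians of 0.09 for Enc1, over 7 probes, and -0.27 for Gap43, over only 3. The median of all neighbours was 0.03 for Enc1 and -0.93 for Gap43. Whether these neighbours bear on the Enc1 and Gap43 ratios was not tested.

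No neighbour of the other 5 member probes was below -2. Of all 11813 probes with a single symbol, 2.60% had at least 4 neighbours without a single symbol below -2, as the Enc1 and Gap43 probes do. Among the 115 probes with a single symbol that themselves had a mean below -2, it was 5.22%, or 6 probes. The Enc1 and Gap43 probes are themselves among these 6, so that share is not independent of them. The neighbours of the Dcx, Fnbp1l, Tiam2 and Tmsb4x probes had medians between -0.11 and 0.20.

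**Figure D2:**
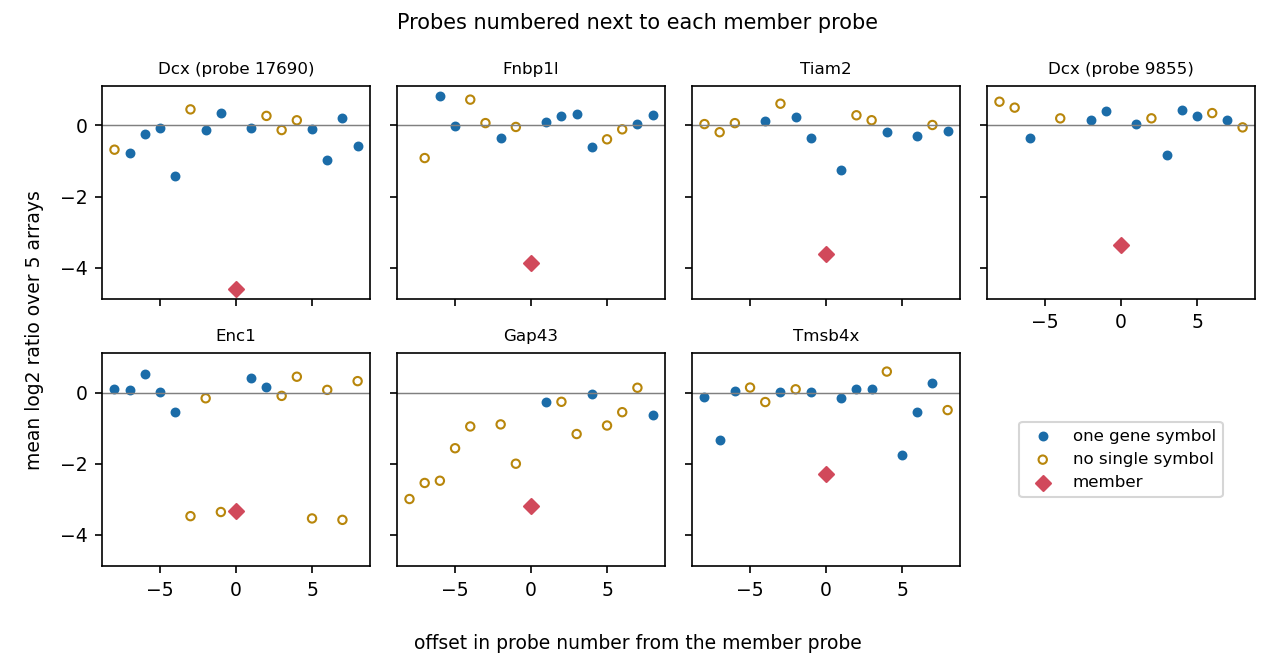
Mean log2 ratio over 5 arrays (vertical axis) of the probes within 8 probe numbers (horizontal axis) of each member probe, which is the red diamond at 0; filled points have a single gene symbol and open points do not. Enc1 has 4 open points below -3 and Gap43 has 6 open points below -1, while the other 5 panels hold no neighbour below -2.

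Close relatives of the members did not all share their ratios. Fnbp1 and Trip10, the other F-BAR proteins of the same small family, stood at 0.26 ± 0.08 and 0.42 ± 0.07, so that the difference was -4.13 ± 0.11 log2 for Fnbp1l minus Fnbp1 and -4.29 ± 0.07 for Fnbp1l minus Trip10. Tiam1, the paralog of Tiam2, stood at -0.16 ± 0.04, and Tiam2 minus Tiam1 was -3.45 ± 0.09, with Tiam2 the lower on 5 of 5 arrays. None of these 3 relatives passed the 2-fold test, and the adjusted p from limma was 1 for each. Each of the 3 rests on 1 probe, as do Fnbp1l and Tiam2, and the signal of these probes over background is unknown.

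Thymosin beta 10 gave the opposite picture. Tmsb10 read -2.45, -2.47, -2.44, -2.44 and -2.46, a mean of -2.45 ± 0.01 (adjusted p = 1.28e-07, limma), and Tmsb4x lay only 0.15 ± 0.05 log2 above it. The doublecortin-like kinase gene Dclk1 was lower at -2.24 ± 0.08 (adjusted p = 1.28e-06, limma), but its 3 probes ran from -3.14 to -0.80. Dclk2 stood at -0.33 ± 0.08 and did not pass. Near Gap43 in function, the protein kinase C substrates Marcksl1 (-2.88 ± 0.06) and Marcks (-2.01 ± 0.10) were both lower, with adjusted p of 1.66e-07 and 8.72e-06 from limma.

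**Figure D3:**
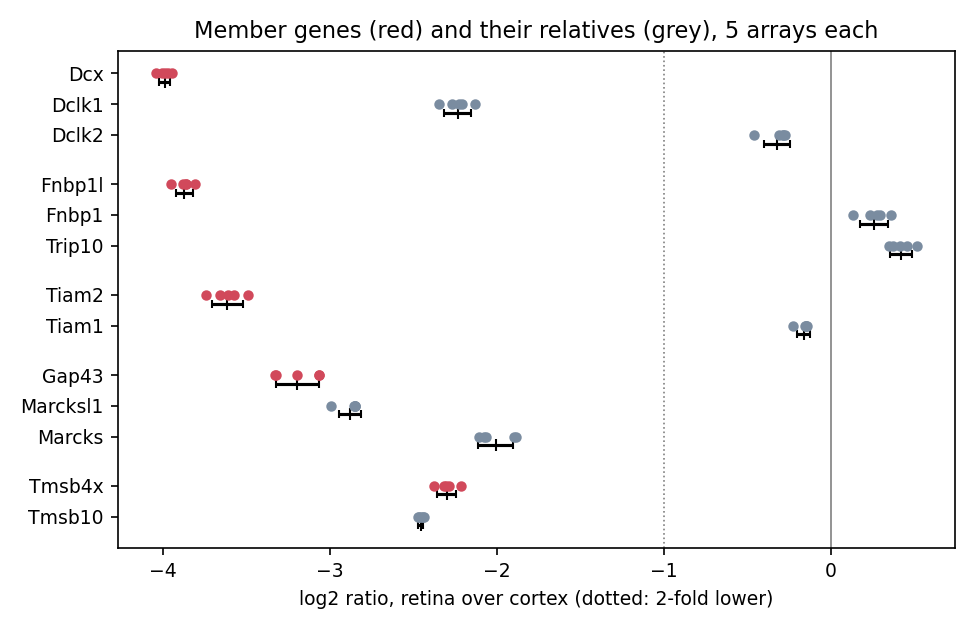
Log2 ratio of retina over cortex (horizontal axis) on the 5 arrays for member genes (red) and related genes (grey), with the mean and SD below each row in black. Fnbp1, Trip10 and Tiam1 lie close to 0 while Fnbp1l and Tiam2 lie below -3, and Tmsb10 lies beside Tmsb4x.

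Around the members, 253 further genes of the same machinery were listed in 6 groups, and 159 of them were measured. Of these, 30 were lower in retina, 3 were higher and 126 did not pass. Over all genes, 3.83% were lower and 2.8% higher by the same test. The median of the 159 genes was -0.41 log2, against -0.0048 over all genes. The lists were drawn up with earlier results known, so these counts are no independent evidence of a direction.

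Microtubule proteins, the group of Dcx, held the most lower genes, 14 of 42, with 1 higher and a median of -0.79. The beta tubulin Tubb2b (-2.91 ± 0.09) and the microtubule destabiliser Stmn4 (-2.35 ± 0.04) were farthest below 0, with adjusted p of 3.21e-07 and 2.18e-07 from limma. The stathmins Stmn1 (-2.02 ± 0.04) and Stmn2 (-1.84 ± 0.04) were lower too, whereas Stmn3 (-1.08 ± 0.03) did not pass. Axonal and dendritic microtubule proteins were also lower, Mapt at -2.11 ± 0.03, Map1b at -1.55 ± 0.11 and Map2 at -1.53 ± 0.16.

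The collapsin response mediators, which bind tubulin downstream of guidance cues, were lower for Dpysl3 (-2.30 ± 0.08), Crmp1 (-1.93 ± 0.08) and Dpysl5 (-1.63 ± 0.12), while Dpysl2 (-1.03 ± 0.16) did not pass. The 2 probes of Dpysl5 disagreed, at -3.06 and -0.20. In contrast to these, the Lis1 gene Pafah1b1 (-0.77 ± 0.08, probes from -1.39 to 0.04) and its dynein partners Ndel1 (-0.07 ± 0.17) and Nde1 (0.03 ± 0.06) did not pass. The dynein gene Dync1i1 was lower, at -1.18 ± 0.04 (adjusted p = 0.00288, limma), but did not pass after scaling of the arrays. Of the Lis1 enzyme subunits, Pafah1b3 was lower at -1.54 ± 0.03. The 1 higher gene was Map7, a microtubule protein that recruits kinesin, at 2.53 ± 0.08 (adjusted p = 5.18e-07, limma).

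Growth cone membrane proteins, the group of Gap43, were lower for 4 of 15 genes and higher for 0, also at an unadjusted limma p below 0.05, with a median of -0.60. The adhesion molecule Chl1 stood at -3.17 ± 0.08 (adjusted p = 1.69e-07, limma), followed by Marcksl1, Marcks and the membrane glycoprotein Gpm6a at -1.61 ± 0.16. The related adhesion molecule L1cam (-0.34 ± 0.44) did not pass, nor did the protein kinase C gene Prkcb at -1.03 ± 0.04, whose 3 probes ran from -1.57 to -0.09.

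Among actin and its regulators, the group of Tmsb4x, 7 of 37 genes were lower and 0 higher, with 0 higher also at an unadjusted limma p below 0.05, and the median was -0.60. The Arp2/3 subunit Arpc5 led at -2.61 ± 0.05 (adjusted p = 1.94e-07, limma), ahead of Tmsb10. The filament capper Tmod2 stood at -1.94 ± 0.13, the dendritic spine protein drebrin, Dbn1, at -1.51 ± 0.06, the filament-severing cofilin Cfl1 at -1.45 ± 0.01 and the Ena/VASP protein Evl at -1.44 ± 0.11. Another Arp2/3 subunit, Arpc1b (-1.18 ± 0.10), passed on all 5 arrays together and not without array 3, 4 or 5. The cytoskeletal actin Actg1 (-0.04 ± 0.07) and the profilin Pfn1 (-0.17 ± 0.11) did not pass.

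The groups around Fnbp1l and Enc1 were closer to the background. Of 23 F-BAR, WASP and WAVE genes, 1 was lower, the WAVE complex subunit Abi2 at -1.33 ± 0.16 (adjusted p = 0.0135, limma), and 1 was higher, the F-BAR protein Pacsin2 at 3.08 ± 0.05 (adjusted p = 8.8e-08, limma). The call of Abi2 was lost without array 1, 3 or 4, which left 1 gene in the group. The median of the group was 0.0012 log2.

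Of 21 BTB-kelch genes, the family of Enc1, Klhl18 was higher at 1.75 ± 0.04 and Klhl23 lower at -1.24 ± 0.14 (adjusted p = 0.0335, limma). The call of Klhl23 was lost without array 1, 2, 4 or 5, and 1 gene was then left. The median of this group was -0.086 log2.

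Of 21 genes of reelin and other migration signals, 3 were lower and 0 higher, with 0 higher also at an unadjusted limma p below 0.05, and the median was -0.54. The adhesion receptor Adgrg1 stood at -2.63 ± 0.08, Nrp1, which binds semaphorins, at -2.06 ± 0.14, and Robo1, which binds Slits, at -1.87 ± 0.11. The reelin adaptor Dab1 (-0.60 ± 0.15) and the kinase Cdk5 (-0.24 ± 0.01), which phosphorylates doublecortin, did not pass.

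**Figure D4:**
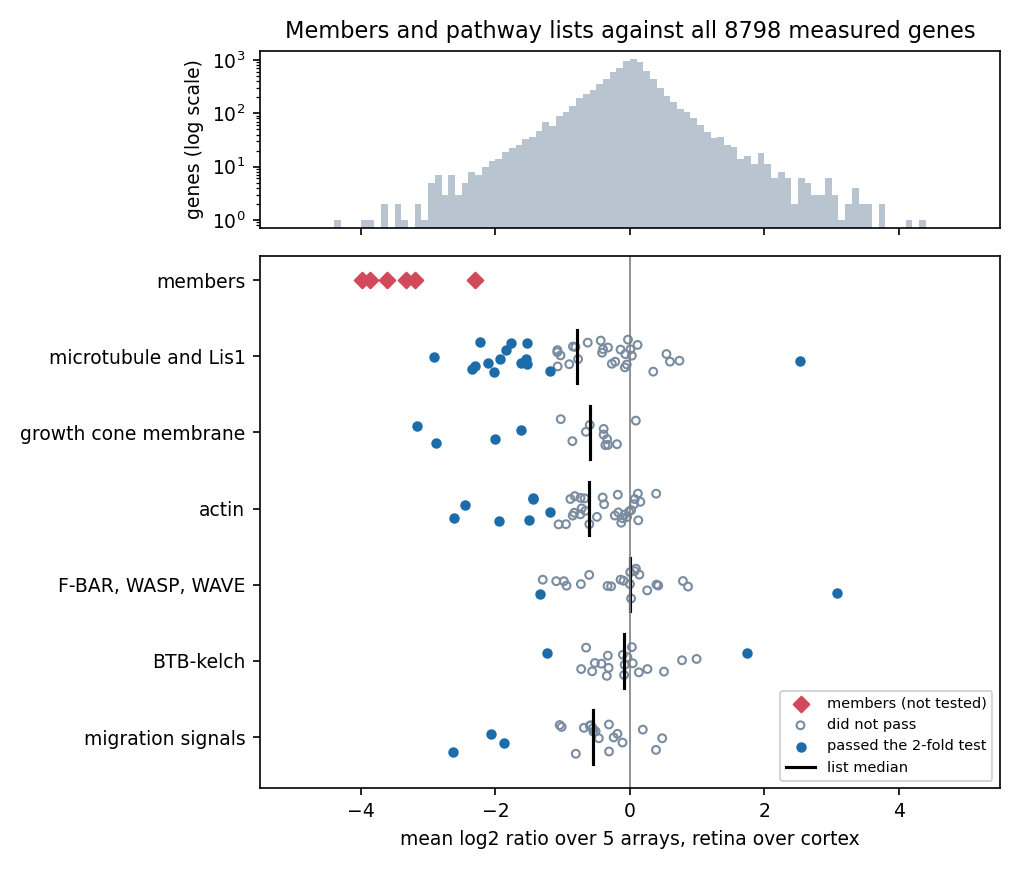
The upper panel shows the number of genes (log scale) by mean log2 ratio of retina over cortex for all 8798 genes; the lower panel shows the 6 members (red diamonds, not tested) and the measured genes of the 6 lists, with filled points for genes past the 2-fold test, open points for the rest and a black bar at each list's median. The medians run from -0.79 for microtubule genes to 0.0012 for F-BAR, WASP and WAVE genes.

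For each member, the 2 other genes with the most similar ratios over the 5 arrays were found by the root mean square difference. These were the neurotensin gene Nts and the phosphoesterase gene Mpped1 for Dcx, at 0.30 and 0.37 log2, Nts and the noncoding RNA Pantr1 for Fnbp1l (0.18 and 0.44) and for Tiam2 (0.09 and 0.18), and the phosphatase inhibitor gene Ppp1r14b and Pantr1 for Enc1 (0.12 and 0.15). Gap43 was nearest to Chl1 (0.08) and Nexmif (0.19), and Tmsb4x to the kainate receptor partner Neto2 and the transcription factor Arnt2 (0.05 and 0.06). With 1 ratio per array and the same pools throughout, such likeness is one of level only. The nearest measured genes on both sides of each member on its chromosome, 12 in all, lay between -0.48 and 0.93. None of them passed limma's 2-fold test, adjusted or not. Over all genes only 6.63% passed the adjusted test, so 0 of 12 is close to that share.

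Markers of the cells in both tissues went in different directions. All 3 measured photoreceptor markers of 22 listed were higher in retina, from 2.97 to 4.30 log2 with the outer segment cadherin Cdhr1 the highest, and 3 of 8 markers of cortical projection neurons were lower, led by the nuclear receptor Nr2f1 at -2.71 ± 0.08. Of 21 markers of dividing progenitors, 4 were lower, led by the helicase subunit Mcm6 at -1.82 ± 0.07. Tmsb4x is also made by microglia and vessels. Of 6 microglia markers, 1 was higher, Laptm5 at 1.49 ± 0.05, and 4 had a mean below 0, with a median of -0.05. Of 10 vessel markers, 3 were higher, led by Flt1 at 1.44 ± 0.08, and 5 had a mean below 0, with a median of -0.03. By the 2-fold test 0 of the 16 were lower, also at an unadjusted limma p below 0.05. Over all genes, 3.83% were lower and 2.8% higher by the adjusted test, so 0 of 16 lower is close to the share over all genes. Gap43 is known in adult ganglion cells, and of 6 ganglion cell markers 2 were higher, led by Sncg at 1.87 ± 0.09, and 1 was lower. The part of cell make-up in the members' ratios was not tested.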

How the data were processed

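Labelled RNA from adult retina (Cy5) and newborn cortex (Cy3) was hybridised to 5 Agilent arrays. The authors deposited 1 signed value per probe and array for 21446 probes, read here as log10 ratios. How they scanned, subtracted background, normalized dyes and filtered is not given in the sources used here. Every column had a median of 0 except that of array 5 (-7.32e-05), and the way in which the columns were centred is unknown. No spot intensity was used here, which leaves signal over background unknown. Precision is limited by the number of arrays.

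Each value was converted to a log2 ratio (times 3.32), and an exact 0, which occurred 174 to 1068 times per array, was read as no value. The platform annotation gave 11813 probes 1 symbol, 559 several and 9074 none. Symbols were updated by gene identifier through RefSeq (GRCm38.p6), which named 11782 probes. A gene's value was the mean over its probes with values on all 5 arrays. Each gene was fitted in limma version 3.58.1 (R version 4.3.3) with lmFit and tested with treat against 2-fold, and the procedure was checked on simulated data. The p-values measure the spread between technical replicate arrays only. Members and lists were chosen with earlier results of these data known, and 1 list is not reported here. The genes named were the members, 9 close relatives where measured, the 2 genes of each list farthest from 0 on each side that passed, the leading marker of each cell type and 2 genes most like each member. Further list genes were named as examples after their values were seen. Alternatives covered centring, scaling, exact 0 values, missing values, the log base, the minimum fold, the probe rule, array weights, the prior and leaving out each array.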

Additional observations from a re-analysis of the deposited data

Results flagged for a closer look

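Among 71 measures checked in the members and named genes, 7 had an array far from the other 4, where chance gives about 5%, and none of the 7 was a member. Dclk2 read -0.46 on array 1 against -0.31 to -0.28 elsewhere. Tiam1 read -0.23 on array 3 against -0.16 to -0.14. Marcksl1 read -2.99 on array 5, and -2.85 on each of the others. Abi2 read -1.05 on array 5 against -1.45 to -1.35, and Pacsin2 2.99 on array 5 against 3.08 to 3.11. Dpysl2 read -0.75 on array 2 against -1.13 to -1.03, and Robo1 -2.06 on array 1 against -1.85 to -1.79.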

How the results depend on the processing

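With the log base kept, the members' values moved by less than 1 SD in 77 of 78 alternative values. The exception was Dcx, at -4.61 when its lower probe stood for the gene, as the median-probe rule has it. Part of these 78 values could not move, because the prior, the minimum fold, exact 0 values and missing values leave the members' means unchanged. The probe rule can change only Dcx, since each other member has 1 probe. Of the other named genes, 795 of 819 values kept their side of the 2-fold test. Arpc2, Prkcb, Srgap2 and Fchsd2 passed with the median probe, and Dync1i1, Abi2 and Arpc1b did not after scaling. The median-probe rule takes the lower middle probe where a gene has an even number of probes, which favours calls of lower genes. Over all genes, 397 were called lower with it, against 337 in the main analysis, and its list counts below share this lean. With a minimum of 1.5-fold, which is met more easily, 1408 genes passed in all, with 23 in the microtubule list, 15 in the actin list, 9 in the F-BAR, WASP and WAVE list, 6 in the migration list and 5 in the kelch list. Read as log2 ratios, the deposited values left 7 genes past limma's 2-fold test and 0 in each of the 6 lists, also at an unadjusted p below 0.05, and the members would run from -1.20 or 2.30-fold lower for Dcx to -0.69 or 1.62-fold lower for Tmsb4x, with Gap43 also under 2-fold at -0.96. With the median probe, 4 genes of the F-BAR, WASP and WAVE list and 5 of the migration list passed, and after scaling 1 of the F-BAR, WASP and WAVE list. With 1 array left out, 528 to 562 genes passed in all. The range was 15 in each case for the microtubule list, 4 for the membrane list, 3 for the migration list, 6 to 7 for actin, 1 to 2 for F-BAR, WASP and WAVE, and 1 to 2 for kelch. No paired analysis was possible because the arrays form 1 group.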
